A study of Mus musculus with 12 samples.

Results

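The genes described here are 8 transcription factors of enteroendocrine cells, the hormone-secreting cells of the gut lining: Neurod1, Pax4, Pax6, Isl1, Insm1, Nkx2-2, Rfx6 and Fev. They were chosen by name, with earlier results of these data known, and all 8 were found among the 32587 gene rows of each table. The lists of other genes used below were chosen in the same way. Their counts beside all tested genes are therefore descriptions and no test of an excess. Expression had been measured by RNA sequencing in wild-type mouse small-intestinal organoids, self-organising epithelial cultures with crypt-like buds, and the tissue label is duodenum. There were 12 libraries in 4 groups of 3: the bile acids cholic acid (CA), chenodeoxycholic acid (CDCA) and deoxycholic acid (DCA), and the control group, labelled DMSO (Control). All groups shared the wild-type genotype and a commercial growth medium that supports stem cells. Each acid is labelled with a dose of 50 mmol/L, which is far above what cells tolerate of a bile acid, so the printed unit may be wrong. One label gives 96 hours of exposure after 2 days of culture and another gives 2 days of treatment. Age, sex and number of donor animals were not given in the sources used here. Whether the 3 libraries of a group stem from different cultures or mice is not stated in the labels, so each p-value reflects just the spread among these libraries, which may be technical.

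Enteroendocrine cells arise from secretory progenitors in the intestinal crypt. The basic helix-loop-helix factor Neurog3 starts the programme for a short time, and a set of later factors, most of them shared with the islets of the pancreas, carries it on. Among the genes described here, Insm1, a zinc-finger repressor, Neurod1, a basic helix-loop-helix activator, and Pax4, a paired-box factor, act soon after Neurog3. The homeobox factors Nkx2-2 and Isl1, the paired-box factor Pax6 and the winged-helix factor Rfx6 are known for sorting the cells into hormone-producing types and for keeping their hormone genes on. Fev, an ETS factor known for its role in serotonin neurons, is also found in the enteroendocrine lineage.

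Values are TPM, a transcript abundance corrected for transcript length and scaled to the library's total, so levels of different genes can be set side by side. TPM keeps no record of depth, so low values carry no counting interval. In each library 11464 to 11711 rows were at 1 TPM or more. Each library was placed along the axis joining the mean of DMSO (0) and that of DCA (1) over all tested genes. A DMSO or DCA library was left out of its own group's mean, so its place is not on the same axis as that of a CA or CDCA library. DMSO replicate 1 lay at 0.331, and DMSO replicates 2 and 3 at 0.0151 and -0.0281. CDCA replicate 3 lay at 0.522, past CDCA replicates 1 and 2 at 0.101 and 0.171. The CA replicates 1, 2 and 3 lay at 0.456, 0.311 and 0.452, all past CDCA replicates 1 and 2. The DCA replicates 1, 2 and 3 lay at 0.988, 1.00 and 0.855. Mitochondrially encoded RNA took 11.2 to 12.7% of the total in DCA and 14.6 to 20.1% in DMSO, and without these rows the falls of Insm1 and Isl1 under DCA still passed the test. The 6 epithelial markers (led by Krt8) summed to 2183 to 2589 TPM over the libraries and the duodenal marker Gata4 was at 76.8 TPM or more, while the colon marker Car1 was listed at 0 in every library. Several of the 8 factors also work in neurons and in islet cells. Of 8 enteric neuron markers, 6 stayed under 1 TPM in every library (Hand2 was listed at 0), while Ret was at 2.78 to 3.80 TPM and Snap25 at 1.30 to 2.63 TPM. Of 5 islet markers, 4 stayed under 1 TPM (Ins1 and Ins2 were listed at 0), while Slc2a2, a glucose transporter that enterocytes also make, was at 16.3 to 73.9 TPM. The part of such cells in the results was not tested. The mesenchymal markers summed to 6.07 TPM at most, and the immune markers to 4.40 TPM at most.

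The promoters of 4 genes are shown here: Isl1 and Neurog3, which passed the test as lower under DCA, and Neurod1 and Nkx2-2, which did not pass. This split is by the threshold and not by size. In DCA against DMSO Nkx2-2 differed by -0.48, close to Isl1 at -0.51. Each sequence runs from 250 bases before to 50 after the gene's start as RefSeq places it (build GRCm38.p6, which is not the build named for these data), on the gene's own strand. Capitals mark every match to the E-box CANNTG, the letters that basic helix-loop-helix factors such as Neurog3 and Neurod1 bind.
Isl1, chr13:116309639-116309938, minus strand: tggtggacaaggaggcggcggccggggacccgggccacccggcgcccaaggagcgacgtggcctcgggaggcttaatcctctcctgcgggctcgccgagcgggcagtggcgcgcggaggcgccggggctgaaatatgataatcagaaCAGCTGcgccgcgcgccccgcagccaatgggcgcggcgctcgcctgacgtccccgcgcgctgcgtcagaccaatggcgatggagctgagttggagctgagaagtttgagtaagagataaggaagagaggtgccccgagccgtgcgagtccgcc
Neurog3, chr10:62132840-62133139, plus strand: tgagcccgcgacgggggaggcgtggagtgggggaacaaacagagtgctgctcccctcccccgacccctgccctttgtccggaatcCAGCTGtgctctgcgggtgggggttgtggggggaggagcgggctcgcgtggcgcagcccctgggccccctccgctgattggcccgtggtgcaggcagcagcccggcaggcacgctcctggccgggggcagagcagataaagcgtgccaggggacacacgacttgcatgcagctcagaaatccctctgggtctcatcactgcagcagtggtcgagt
Neurod1, chr2:79456587-79456886, minus strand: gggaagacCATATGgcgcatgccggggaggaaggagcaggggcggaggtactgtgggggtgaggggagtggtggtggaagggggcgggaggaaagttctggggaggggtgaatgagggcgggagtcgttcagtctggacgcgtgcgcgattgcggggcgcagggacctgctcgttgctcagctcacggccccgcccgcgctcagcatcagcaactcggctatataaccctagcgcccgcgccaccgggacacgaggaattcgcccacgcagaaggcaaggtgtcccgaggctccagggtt
Nkx2-2, chr2:147186353-147186652, minus strand: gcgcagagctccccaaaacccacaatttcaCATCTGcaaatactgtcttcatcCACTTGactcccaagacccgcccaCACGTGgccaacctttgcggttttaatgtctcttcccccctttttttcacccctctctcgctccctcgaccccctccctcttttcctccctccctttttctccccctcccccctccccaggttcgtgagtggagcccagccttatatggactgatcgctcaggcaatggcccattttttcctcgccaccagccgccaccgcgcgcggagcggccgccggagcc

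Isl1 and Neurog3 each held 1 E-box in this window, both with the letters CAGCTG, which 16.3% of 32851 promoters of this length hold. Neurod1 held 1 E-box of other letters, and Nkx2-2 held 3, among them CATCTG, the reverse complement of CAGATG. That last pair of letters, read on both strands, is in 17.2% of the promoters. Any E-box at all is in 72.3% of them, so most promoters share that feature. In the other entries found, Rfx6 held 1 E-box, Fev 0, and the 2 starts listed for Pax6 held 0 and 1; Pax4 and Insm1 had no entry. These matches describe letters in a window and no binding.

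In DMSO the 8 genes fell into 3 levels that did not overlap. Neurod1 was at 8.91 ± 0.961 TPM (mean ± SD, n = 3 here and below), Insm1 at 8.47 ± 0.272, Fev at 7.74 ± 0.589 and Nkx2-2 at 7.41 ± 2.20 TPM. Neighbours in this order overlapped in their libraries, so the order among the 4 is loose. Isl1 at 3.99 ± 0.591, Rfx6 at 3.84 ± 1.11 and Pax6 at 3.59 ± 1.14 TPM overlapped each other and lay below every library of the first 4. Pax4 was lowest at 0.571 ± 0.145 TPM. Together the 8 genes summed to 39.0 to 48.5 TPM in DMSO, 43.4 to 45.8 in CA, 40.0 to 40.7 in CDCA and 28.5 to 36.2 in DCA. Every DCA library therefore lay below every library of the other groups in this sum. The rank of Insm1 by mean TPM was 2 in DMSO, 3 in CA and CDCA and 4 in DCA, below Nkx2-2.

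**Figure D1:**
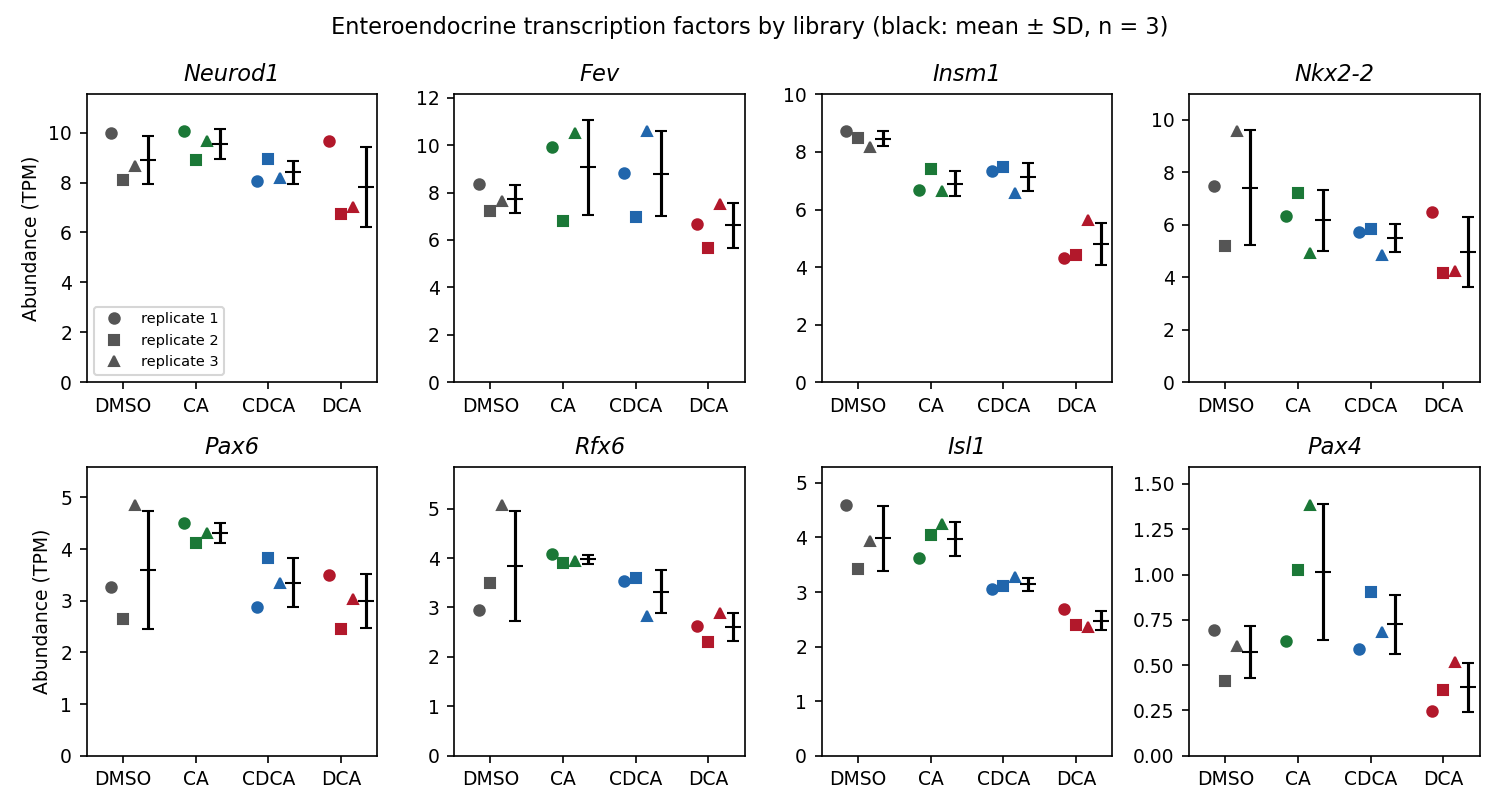
TPM (vertical axis, starting at 0, scaled to each gene) of the 8 factors in the 3 libraries of each group (horizontal axis); symbols mark the replicate number and black bars the mean ± SD, n = 3. Insm1 in DCA lies at 4.32 to 5.63 TPM, below all libraries of the other groups, and Isl1 in DCA at 2.35 to 2.69 TPM likewise.

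The comparisons asked which of these factors differ between organoids given an acid and those given solvent, and between the acids. DCA was the acid under which members fell: Insm1 and Isl1 were lower than in DMSO, and all 7 tested members had a difference below 0. Their median was -0.40, and that of all tested genes was also below 0, at -0.021. The share of all tested genes below 0 is not given here, so the count of directions is a description. With CA and with CDCA no member passed the test. Of the members, 7 reached the filter of at least 1 TPM in at least 3 libraries and were tested with limma on log2(TPM + 1), adjusted over 11952 genes; Pax4 did not reach it. In DCA against DMSO 2 of 7 fell and 0 rose, while 19.2% of all tested genes fell, 18.8% rose and 38.0% differed. The 2 of 7 is close to that background and is no result about the members as a set. Without the mitochondrial and rRNA rows 4 of 8 members tested fell (Insm1, Isl1, Rfx6 and Nkx2-2), and the share of all tested genes that fell was 28.7%. In bulk RNA, fewer cells of a type and less of an RNA per cell cannot be told apart.

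Insm1, the repressor that acts soon after Neurog3 and is needed for the cells to mature, showed the clearest difference. It was at 8.72, 8.50 and 8.18 TPM in the DMSO libraries, 6.66, 7.40 and 6.63 in CA, 7.34, 7.49 and 6.59 in CDCA and 4.32, 4.43 and 5.63 TPM in DCA. All 9 libraries with an acid lay below all 3 with DMSO, and the DCA libraries lay below those with CA or CDCA. The DCA mean was 56.6% of the DMSO mean, against 81.5% for CA and 84.3% for CDCA. On the log2(TPM + 1) scale, which understates changes of low genes, Insm1 fell by 0.72 in DCA (95% confidence interval -0.95 to -0.48, limma adjusted p = 0.000375, lower in 3 of 3 libraries). Against DMSO the difference was -0.26 for CA (interval -0.50 to -0.028, limma adjusted p = 0.284) and -0.22 for CDCA (interval -0.45 to 0.015, limma adjusted p = 0.562), and neither passed. Of all tested genes, 5.21% were lower without overlap in CA and 3.03% in CDCA. In DCA against DMSO the call of Insm1 held in each of 14 alternatives, with limma adjusted p of 0.000253 to 0.00294.

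Neurod1, the activator that follows Neurog3 and is known for driving the secretin gene, was the most abundant of the 8 in DMSO, CA and DCA. Its values were 9.97, 8.10 and 8.65 TPM in DMSO, 10.1, 8.90 and 9.66 in CA, 8.08, 8.94 and 8.20 in CDCA and 9.65, 6.74 and 7.04 TPM in DCA. The groups overlapped, since DCA replicate 1 stood among the DMSO libraries while DCA replicates 2 and 3 lay below them. The difference of DCA from DMSO was -0.18 (interval -0.46 to 0.095, limma adjusted p = 0.284), that of CA 0.092 (interval -0.18 to 0.37) and that of CDCA -0.072 (interval -0.35 to 0.20).

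Pax4, a paired-box repressor known in the mouse for the choice of somatostatin and serotonin cell fates, had the lowest level of the 8. It was at 0.696, 0.412 and 0.604 TPM in DMSO, 0.635, 1.03 and 1.39 in CA, 0.587, 0.905 and 0.682 in CDCA and 0.247, 0.364 and 0.519 TPM in DCA. The DCA libraries were below all CA and CDCA libraries and overlapped those of DMSO. With the filter dropped, the difference of DCA from CA was -0.54 (limma adjusted p = 0.0567) and that of DCA from DMSO -0.19 (limma adjusted p = 0.416). Pax4 also came over the filter when the mitochondrial and rRNA rows were left out and the rest rescaled, and there it passed in DCA against CA (-0.60, limma adjusted p = 0.0382) and not in DCA against DMSO (-0.25, limma adjusted p = 0.296).

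Isl1, a LIM homeobox factor needed in the mouse gut for several hormone-producing cell types, was the other member that fell. It was at 4.60, 3.42 and 3.93 TPM in DMSO, 3.62, 4.05 and 4.24 in CA, 3.05, 3.11 and 3.27 in CDCA and 2.69, 2.39 and 2.35 TPM in DCA. The DMSO and CA libraries overlapped, the CDCA libraries lay below both, and the DCA libraries lay below the rest. Relative to DMSO, Isl1 fell by 0.51 in DCA (interval -0.77 to -0.26, limma adjusted p = 0.00442, lower in 3 of 3 libraries), and its mean was 62.1% of the DMSO mean. The call held in each of 14 alternatives, with limma adjusted p of 0.00128 to 0.0217. For CDCA the difference was -0.26 (interval -0.52 to -0.0056, limma adjusted p = 0.500), which did not pass, and for CA it was 0.00094 (interval -0.25 to 0.26).

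Rfx6, a winged-helix factor needed for gut hormone production, lay close to the threshold. It was at 2.94, 3.50 and 5.08 TPM in DMSO, 4.08, 3.90 and 3.93 in CA, 3.54, 3.60 and 2.82 in CDCA and 2.62, 2.31 and 2.89 TPM in DCA. The DCA libraries lay just below the lowest DMSO library, and the DMSO libraries were spread widely with replicate 3 on top. The difference of DCA from DMSO was -0.40 (interval -0.74 to -0.069, limma adjusted p = 0.0553). Rfx6 passed in 5 of 14 alternatives, among them the one without DMSO replicate 1 (-0.54, limma adjusted p = 0.0147), and was at -0.23 without DMSO replicate 3 (limma adjusted p = 0.197). Together with Isl1 and Insm1 it makes 3 of 7 members whose DCA libraries lay below all of DMSO, where 26.0% of all tested genes did so.

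Nkx2-2, a homeobox factor that in mice steers gut endocrine cells away from the ghrelin fate, varied most between DMSO libraries in absolute terms. It was at 7.49, 5.17 and 9.56 TPM in DMSO, 6.35, 7.22 and 4.92 in CA, 5.71, 5.85 and 4.86 in CDCA and 6.50, 4.18 and 4.22 TPM in DCA. All groups overlapped. DCA differed from DMSO by -0.48 (interval -0.92 to -0.046, limma adjusted p = 0.0764), a difference that passed without DMSO replicate 2 (-0.69, limma adjusted p = 0.0203) or without DCA replicate 1 (-0.66, limma adjusted p = 0.0322). Without DMSO replicate 3 it was -0.30 (limma adjusted p = 0.270).

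Pax6, the paired-box factor that drives proglucagon and GIP transcription, and Fev showed no difference that passed. Pax6 was at 3.27, 2.65 and 4.86 TPM in DMSO, 4.50, 4.11 and 4.32 in CA, 2.88, 3.82 and 3.34 in CDCA and 3.50, 2.46 and 3.03 TPM in DCA. The 3 CA libraries were close to each other and lay above every CDCA and DCA library, while DMSO spanned nearly the whole range. Its difference of DCA from DMSO was -0.18 (interval -0.55 to 0.18), and without DMSO replicate 3 it was 0.0080. Fev was at 8.38, 7.21 and 7.64 TPM in DMSO, 9.91, 6.79 and 10.5 in CA, 8.83, 6.98 and 10.6 in CDCA and 6.68, 5.65 and 7.51 TPM in DCA. In CA and CDCA replicate 2 was well below the other libraries, so these groups overlapped all others. DCA differed from DMSO in Fev by -0.20 (interval -0.57 to 0.16, limma adjusted p = 0.364).

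**Figure D2:**
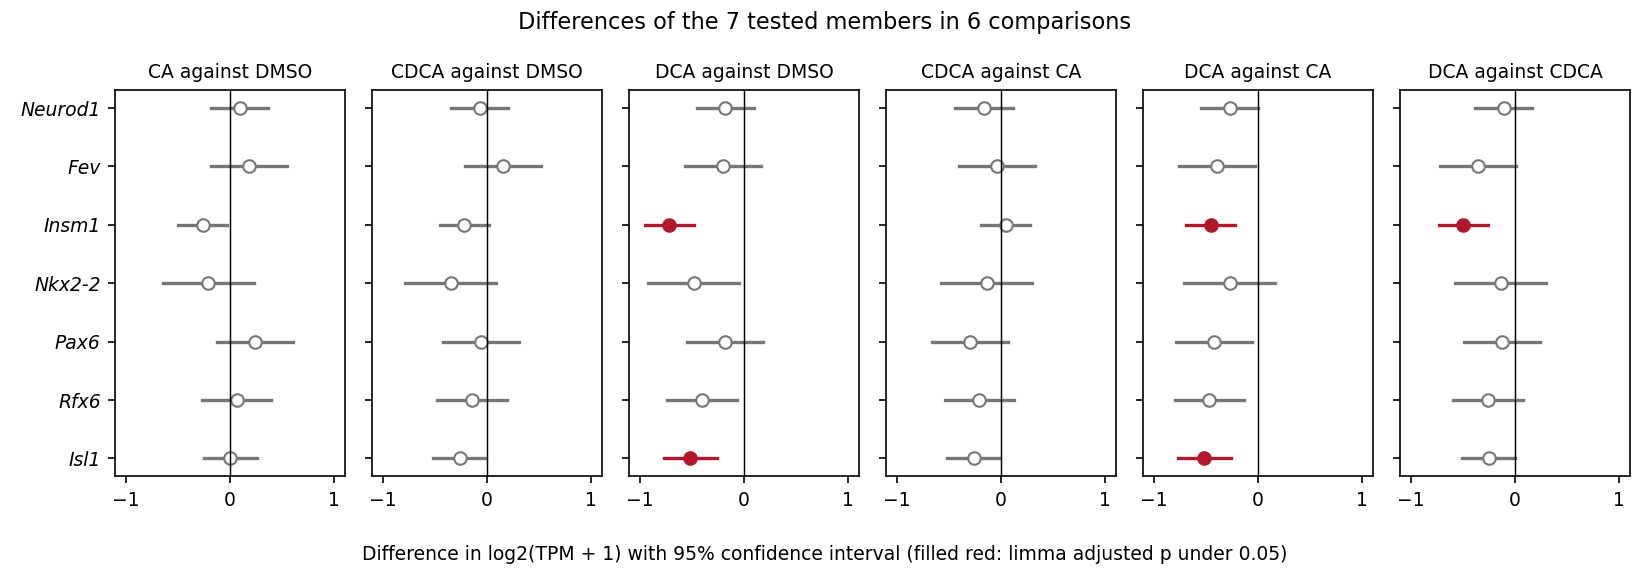
Difference in log2(TPM + 1) (horizontal axis) of the 7 tested factors in 6 comparisons, with 95% confidence intervals; filled red points passed a limma adjusted p of 0.05. Insm1 passed in each comparison of DCA, at -0.72 against DMSO, -0.45 against CA and -0.50 against CDCA, Isl1 passed against DMSO and CA at -0.51 and -0.52, and no member passed where DCA was not compared.

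The acids themselves were compared in 3 pairs at the one dose the labels give. CA and CDCA differ by a ring hydroxyl that CDCA lacks, CA and DCA by another ring hydroxyl that DCA lacks, and CDCA and DCA are isomers that differ in where a hydroxyl sits. DCA and CA differed in 2 of 7 members, both lower in DCA, where 14.7% of all tested genes differed, 8.94% lower and 5.79% higher. Isl1, Insm1, Rfx6 and Pax6 were lower without overlap, as were 28.7% of all tested genes. Insm1 fell by 0.45 (interval -0.69 to -0.22, limma adjusted p = 0.0180) and Isl1 fell by 0.52 (interval -0.77 to -0.26, limma adjusted p = 0.0148). These calls were lost when some single libraries were left out. Without CA replicate 2 or DCA replicate 1 or 2 Insm1 no longer passed (its highest limma adjusted p was 0.0815). Isl1 did not pass without CA replicate 2 or 3 or DCA replicate 2 or 3 (up to 0.0642). With 1 library left out, the difference was -0.55 to -0.40 for Insm1 and -0.57 to -0.48 for Isl1. Over all tested genes, 1761 were called with every library and 572 to 1107 with 1 left out, so fewer genes passed in general. The other tested members differed by -0.47 (Rfx6, limma adjusted p = 0.0601) to -0.27 (Neurod1 and Nkx2-2), with the Rfx6, Pax6 and Fev intervals below 0 before adjustment. In a fit of only these 6 libraries Rfx6 and Pax6 passed as well, where 17.7% of all tested genes were lower, and without the mitochondrial and rRNA rows Rfx6 and Pax4 did, where 14.0% were lower.

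DCA and CDCA differed in 1 of 7 members, Insm1, which fell by 0.50 (interval -0.73 to -0.26, limma adjusted p = 0.00545) and held in each of 14 alternatives; 27.8% of all tested genes differed, 15.0% lower and 12.8% higher. Insm1 and Isl1 were lower without overlap, as were 27.1% of all tested genes. Isl1 differed by -0.25 (interval -0.51 to 0.00087) and Fev by -0.35 (interval -0.72 to 0.0096), neither past the threshold. With the replicate number as a block, Fev passed as well, at a limma adjusted p of 0.0498.

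CDCA and CA differed in 0 of 7 members by limma, with 1 at an unadjusted p under 0.05, while 0.0335% of all tested genes were called and 7.20% had such an unadjusted p. Insm1 differed by 0.043 (interval -0.19 to 0.28), the narrowest interval of the 7. For Isl1 the difference was -0.26 (interval -0.52 to -0.0066, limma adjusted p = 0.681), with the 3 CDCA libraries below the 3 CA libraries, as 6.47% of all tested genes were. Pax6 and Rfx6 were also lower in CDCA without overlap, at -0.29 (interval -0.66 to 0.071) and -0.21 (interval -0.54 to 0.13). Differences of these sizes are not resolved by 3 libraries a group. For the acids against solvent, limma called 0 of 7 members for CA and 0 for CDCA, with 1 each at an unadjusted p under 0.05 (Insm1 and Isl1), while 0.577% and 0.594% of all tested genes were called and 14.8% and 9.77% had such an unadjusted p.

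Chga, chromogranin A, is a granule protein common to most enteroendocrine cells, and it is used here as 1 of 2 scales for these factors. It was at 128, 126 and 140 TPM in DMSO and at 134, 129 and 121 TPM in DCA, a difference of -0.036 (interval -0.23 to 0.16). Most of its list moved otherwise: 7 of 10 tested granin and hormone-processing genes fell in DCA, where 19.2% of all tested genes fell. Among the 7 were Chgb, chromogranin B (-0.37), the prohormone convertase Pcsk1 (-0.70) and Cplx2 (-0.80), a regulator of exocytosis. Per 100 TPM of Chga, Insm1 was at 6.46 ± 0.537 TPM in DMSO, 4.92 ± 0.597 in CA, 5.13 ± 0.243 in CDCA and 3.76 ± 0.770 TPM in DCA. On this scale the DCA libraries, at 3.22 to 4.64, lay below all DMSO and CDCA libraries, while DCA replicate 3 at 4.64 lay above CA replicate 1 at 4.33. Isl1 per 100 TPM of Chga was 2.72 to 3.58 in DMSO and 1.85 to 2.00 in DCA, without overlap. Neurod1 was 6.17 to 7.76 in DMSO and 5.21 to 7.19 in DCA, and Fev 5.45 to 6.52 and 4.37 to 6.19, each with overlap. Chgb was taken as the other scale after seeing the data. Per 100 TPM of Chgb, Insm1 was 1.40 to 1.73 in DMSO and 0.975 to 1.47 in DCA, with overlap, and Isl1 was 0.671 to 0.912 and 0.584 to 0.615, without overlap. The separation of Insm1 from DMSO thus depended on the gene used as scale. These ratios are given as values without a test.

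**Figure D3:**
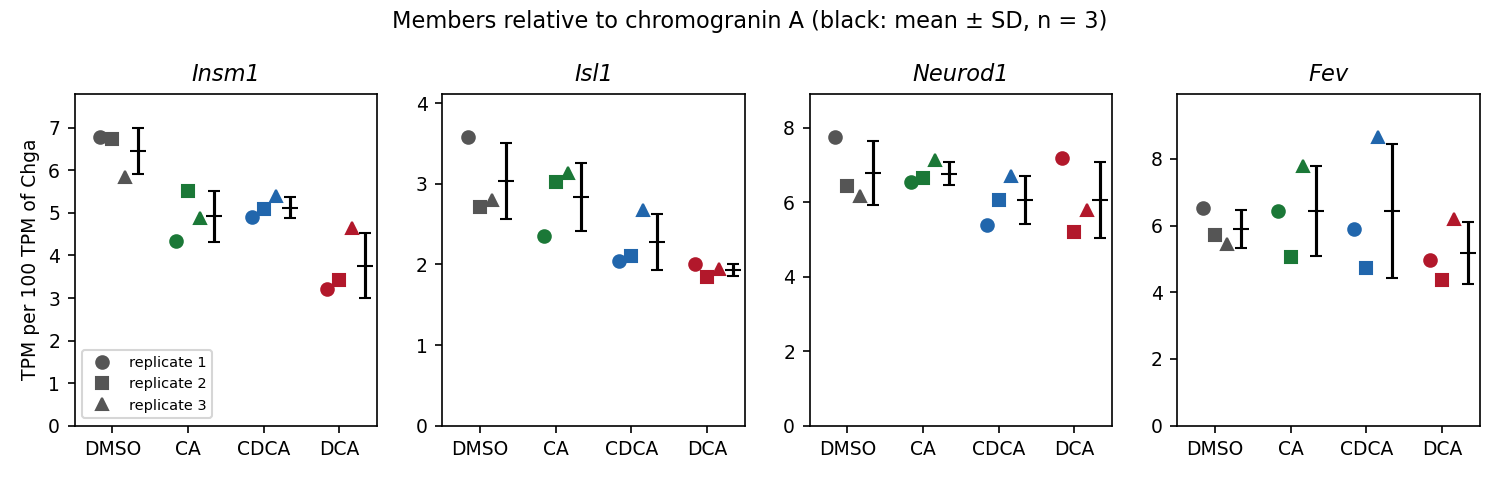
TPM per 100 TPM of Chga (vertical axis, starting at 0) of Insm1, Isl1, Neurod1 and Fev in the 3 libraries of each group, with mean ± SD in black, n = 3. Insm1 lies at 5.84 to 6.79 in DMSO and 3.22 to 4.64 in DCA, while the ranges of Neurod1 in those groups overlap.

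Several other factors of the lineage fell under DCA. Neurog3, which starts the endocrine programme, was at 8.04, 10.7 and 10.4 TPM in DMSO, 7.38, 9.36 and 5.87 in CA, 12.1, 10.5 and 8.23 in CDCA and 3.93, 4.20 and 4.86 TPM in DCA. Its DCA libraries lay below all others, and it fell by 1.00 against DMSO (interval -1.37 to -0.63, limma adjusted p = 0.000712) and by 1.07 against CDCA (limma adjusted p = 0.00125). Of 18 other enteroendocrine transcription factors listed, 15 were tested. Like the other lists here, this one was drawn up with earlier results of these data known, so its counts are descriptions. All 15 had a difference below 0 in DCA against DMSO (median -0.54, against -0.021 for all tested genes). By limma 8 fell and 0 rose, where 19.2% of all tested genes fell and 18.8% rose. Among the 8 were Sox4 (-1.37), an early progenitor factor, and the forkhead factors Foxa2 (-1.30) and Foxa1 (-1.17). Pdx1, the duodenal and pancreatic homeobox factor, differed by -0.25 (limma adjusted p = 0.0504). With CA and with CDCA, 0 of these 15 passed by limma, and 1 and 3 had an unadjusted p under 0.05. Of all tested genes, 14.8% and 9.77% had such an unadjusted p. The median of the 7 tested members in DCA was -0.40.

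Some genes of secretory fate and of the Notch pathway fell under DCA as well. Of 11 listed, 10 were tested and 6 fell, 0 rose (median -0.45), where 19.2% of all tested genes fell and 18.8% rose. Sox9 (-1.61), a crypt progenitor factor, Spdef (-0.72), a goblet and Paneth cell factor, and the Notch ligands Dll1 (-0.57) and Dll4 (-0.56) were among them. So was the receptor Notch1, whose call held in 7 of 14 alternatives (limma adjusted p up to 0.122). Atoh1, the factor that commits cells to the secretory fate, fell by 0.36 (limma adjusted p = 0.0211), a call that held in 9 of 14 alternatives and was lost without DMSO replicate 1 (alone or with CDCA replicate 3), DCA replicate 1 or DCA replicate 3, and when only DMSO and DCA were fitted (limma adjusted p up to 0.0716). Tuft cell markers, from another secretory cell type, summed to 6.38 to 9.96 TPM in DCA and 10.2 to 18.5 TPM in DMSO, and their part in these differences was not tested.

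Downstream, 8 of 11 tested hormone genes fell in DCA and 2 rose, where 19.2% of all tested genes fell and 18.8% rose. The 2 that rose were Ghrl, ghrelin, and Pyy, peptide YY, which were named after their values were seen. Pyy no longer passed without DMSO replicate 2 or 3 or DCA replicate 1 or 3 (its highest limma adjusted p was 0.102). Of the 7 granin and hormone-processing genes that fell, with 0 that rose, 4 passed without DCA replicate 2 and 3 without DCA replicate 3. The 6 serotonin cell genes stood closest to all tested genes, with a median of -0.13 and 1 fall, in Lmx1a (limma adjusted p = 0.0425), a factor of serotonin cells whose call held in 7 of 14 alternatives. It was lost with no filter, with the replicate block, in a fit of only the 6 libraries compared, and without DMSO replicate 2 or 3 or DCA replicate 1 or 2 (limma adjusted p of 0.0535 to 0.177). Tph1, the rate-limiting enzyme of serotonin synthesis in the gut, was at -0.22 (interval -0.64 to 0.20). With CDCA the hormones Gcg, Gip and Sst fell, while 0 of 7 members passed and 0.594% of all tested genes were called. Gcg held in 14 of 14 alternatives, and Gip in 13, failing without CDCA replicate 3 and DMSO replicate 1 together (limma adjusted p = 0.0559). Sst held in 10, failing without DMSO replicate 3 or CDCA replicate 1 or 2 and in the fit of 6 libraries (limma adjusted p up to 0.151). With CA 1 hormone gene passed, Ghrl, where 0.577% of all tested genes were called. Ghrl rose by 0.53 (limma adjusted p = 0.0135) and held in 10 of 14 alternatives, failing without DMSO replicate 2 or any 1 of the CA libraries (limma adjusted p up to 0.0789). The 3 comparisons against DMSO share its libraries.

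**Figure D4:**
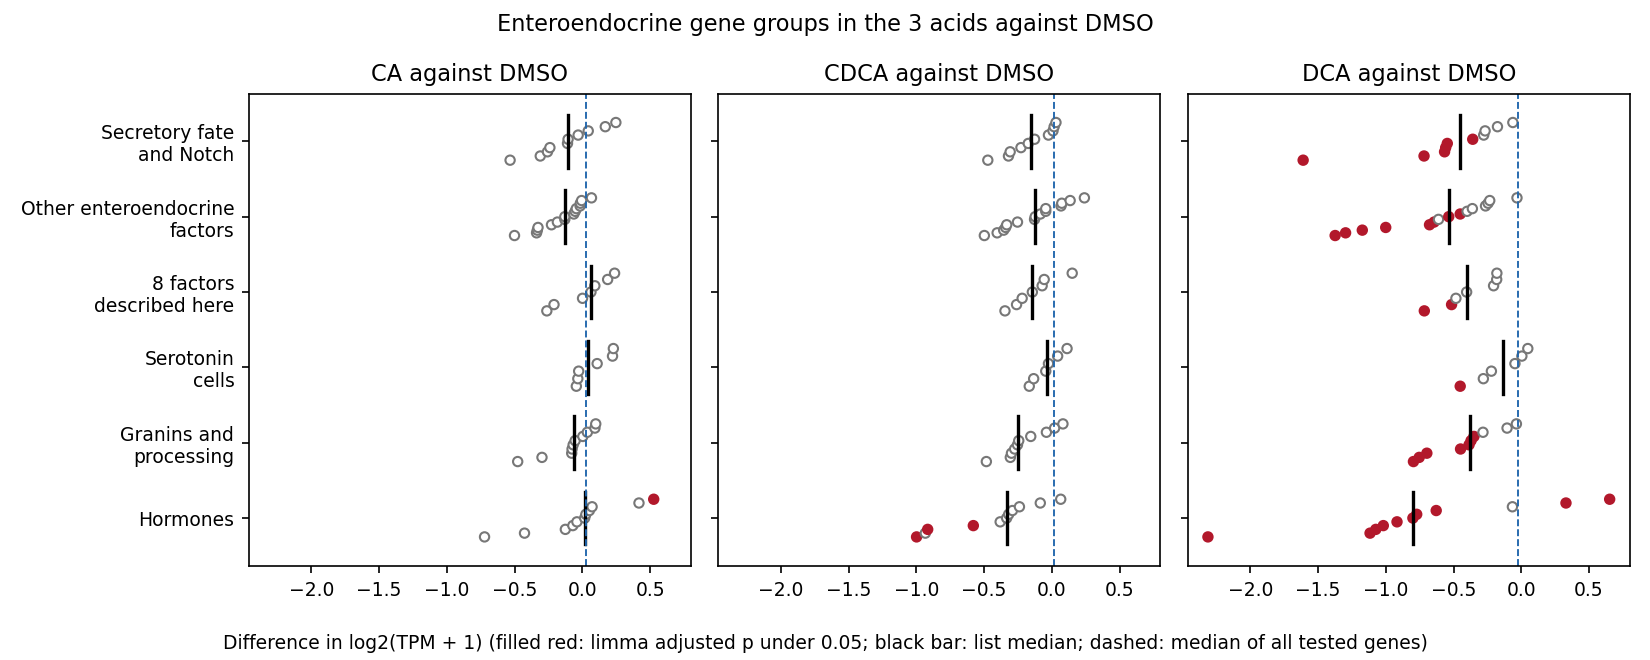
Difference in log2(TPM + 1) against DMSO (horizontal axis) of every tested gene in 6 gene groups (rows) for CA, CDCA and DCA; filled red points passed a limma adjusted p of 0.05, black bars are group medians and the dashed line is the median of all tested genes. In the DCA panel the median is -0.40 for the factors described here and -0.80 for hormones.

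Genes whose pattern over the 12 libraries was most like that of a member were ranked by Pearson's r of log2(TPM + 1) among 10963 genes, as a description. Insm1 was most like Tsen15 (r = 0.974), Phlda3 (0.961) and Fam83d (0.959), and Isl1 most like Tspan8 (0.961), Fam72a (0.951) and Scgn (0.939), a calcium-binding protein of endocrine cells. Rfx6 was closest to Krt7 (0.960), Nkx2-2 to Hpdl (0.918), Pax6 to Phc3 (0.911), Fev to Impact (0.847) and Neurod1 to Ssbp2 (0.839). The next on the list of Fev was Slc18a1 (0.840), a vesicular monoamine transporter that loads serotonin into granules, and the third on that of Neurod1 was the peptide gene Iapp (0.830). Where groups differ, as for Insm1 and Isl1, genes that differ between the same groups have a high r as well.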

How the data were processed

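For each of 12 libraries the authors deposited gene symbols with TPM values (32587 rows). The labels do not name this unit; it was read from the values, which are fractional and total 889156 to 936841 a library. The submitters' processing notes name Salmon 1.8.0 and GRCm39; annotation, strand setting and the step from transcripts to genes were not given in the sources used here. Per the labels' protocols, poly(A) RNA was used and the second strand was marked with dUTP. TPM are shares of a total and keep no depth. A value of 0 may be an estimate that failed, since 4 of 4802 rows with a mean of 20 TPM or more were at 0 in some library.

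The members and gene lists were chosen with earlier results of these data known. Rows reaching 1 TPM in 3 or more libraries (11952) were fitted as log2(TPM + 1) with limma 3.58.1 in R 4.3.3 (4 group means over 12 libraries, trend and robust moderation, two-sided, Benjamini-Hochberg within each of 6 comparisons, threshold 0.05), after a test on simulated data. Named were the 8 members, from each list up to 6 genes with the smallest p and 10 set genes, and up to 3 genes most like each member. Of 112 listed genes, Mln was not found. Alternatives changed the filter, pseudocount (0.1), scaling, replicate block, moderation and libraries, or left out the 13 mitochondrial and 2 rRNA rows. Some genes of the lists are counted but not reported here by name.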

Additional observations from a re-analysis of the deposited data

How the results depend on the processing

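Of 336 member differences under alternatives other than leaving out 1 library, 321 kept direction and side of the threshold, 11 newly passed and 4 changed sign; of 252 with 1 library left out, the numbers were 229, 3 and 13, and 7 no longer passed. All sign changes were in differences that had not passed, and their cause was not tested. For Isl1, CA against DMSO was -0.024 with median-ratio scaling, -0.044 without mitochondrial and rRNA rows, and -0.082 to 0.088 with 1 library left out. For Rfx6 that comparison was -0.073 without CDCA replicate 3 and DMSO replicate 1, and -0.073 to 0.24 with 1 library left out. In CDCA against DMSO, Neurod1 was 0.019 without those 2 libraries and -0.13 to 0.0040 with 1 left out, Rfx6 -0.28 to 0.033 and Pax6 -0.21 to 0.13. In DCA against DMSO, Pax6 ranged from -0.33 to 0.0080 and Chga from -0.069 to 0.010, and in CDCA against CA Fev ranged from -0.21 to 0.10. Members called in DCA against DMSO numbered 2, with 4 without mitochondrial and rRNA rows and 2 to 3 with 1 library left out. In DCA against CA they numbered 2, with 4 without those rows, 4 in a fit of the 6 libraries compared, and 0 to 2 with 1 library left out. In DCA against CDCA they numbered 1, and 2 with the replicate block. The libraries share only a number (correlations of deviations between same-numbered libraries -0.378 to 0.109, and 2 of 12 libraries closest to their own number); the block left 2 members called in DCA against DMSO. Members called stayed at 0 in the other 3 comparisons under all alternatives run. Over all genes, CA against DMSO called 69, and 26 with no filter, 29 with median-ratio scaling, 33 without trend and robust moderation, 966 without CDCA replicate 3 and DMSO replicate 1, 42 in the fit of 6 libraries, and 2 to 193 with 1 left out. CDCA against DMSO called 71, and 45 with the replicate block, 22 in the fit of 6, and 41 to 86 with 1 left out. CDCA against CA called 4, and 9 without mitochondrial and rRNA rows, 440 without those 2 libraries, 2 in the fit of 6, and 3 to 34 with 1 left out. DCA against CA called 1761, and 2830 without those 2 libraries, 3401 in the fit of 6, and 572 to 1107 with 1 left out, and DCA against CDCA called 3322, and 2022 to 3943. Without mitochondrial and rRNA rows the split of higher and lower calls moved from 2245 and 2300 to 1913 and 3498 in DCA against DMSO, from 692 and 1069 to 704 and 1700 in DCA against CA, and from 1532 and 1790 to 1434 and 2781 in DCA against CDCA. With median-ratio scaling it moved from 61 and 10 to 60 and 28 in CDCA against DMSO. Alternatives for gene lists and genes that are no members were chosen after seeing the data. With 3 libraries a group and no record of depth, the limits of low genes such as Pax4 cannot be given.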
